A study of Mus musculus with 17 samples.

Results

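Heat shock proteins and their co-chaperones are described here through 10 genes chosen by symbol from the 48709 genes of a count table. Hspa1a, Hspa1b, Dnajb1, Hsph1 and Hsp90aa1 were taken as the 5 inducible members. Hspa8, Hsp90ab1, Dnaja1, Hspd1 and Hspe1 were taken as the 5 constitutive members. Setting the first class against the second asks whether preparation stress is visible in brain against blood cells.

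Heat shock proteins are molecular chaperones that bind unfolded or nascent proteins and help them to fold, to be transported or to be degraded. HSP70 proteins such as those encoded by Hspa8, Hspa1a and Hspa1b work in cycles of ATP hydrolysis that J-domain co-chaperones start and nucleotide exchange factors end. HSP90 proteins take over partly folded clients, and the HSP60 and HSP10 chaperonins, encoded by Hspd1 and Hspe1, fold proteins inside mitochondria. Heat shock factor 1 induces some of these genes within minutes of heat or proteotoxic stress by binding inverted repeats of the unit GAA, called heat shock elements, and tissue dissociation is a known trigger of the same genes.

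RNA was sequenced from CD8+ T cells, which can kill infected or altered cells, in 17 mouse libraries that the study describes as coming from aged and transgenic animals, without an age in the labels. WT mice gave 5 blood and 5 brain libraries, all from females. APP-PS1 mice (APP Swedish PS1 dE9) gave 3 blood libraries, 2 male and 1 female, and 4 brain libraries, 3 male and 1 female, so sex and strain largely coincide. These mice carry a chimeric mouse/human APP transgene and a mutant human presenilin 1, both driven by the prion protein promoter and directed to neurons of the central nervous system. The design text counts 10 WT and 7 APP-PS1 mice, brain and blood libraries of 1 animal are not linked by any label, and p-values cover only the spread among these libraries, some of which may be technical. All animals were bred under SPF conditions and moved to non-SPF housing shortly before use. Libraries are numbered within a group only to name them.

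Brain and blood cells were prepared differently, per the labels' protocols. Brains were chopped and homogenized in ice-cold buffer and freed of myelin on a percoll gradient, with no enzyme named. Blood was treated with red blood cell lysis buffer. Between brain and blood, tissue and preparation therefore cannot be told apart. The step that isolated the stained CD8+ cells is not given in the available text.

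The libraries were shallow, with totals of 27646 to 214670 counts. All 8 listed CD8 T cell markers had counts in every group, and Cd4 had none in any library. Of 10 listed microglial genes, P2ry12, Tmem119, C1qa, Trem2 and Sall1 were at 0 throughout. Csf1r had counts only in WT brain, C1qb and C1qc only in APP-PS1 brain, and the remaining listed genes had counts in every group. The summed level of the 6 red blood cell markers was 2152 to 9967 CPM (counts scaled to the library total) in WT blood against 156 to 873 CPM in WT brain, and 2970 to 8071 CPM in APP-PS1 blood against 36.2 to 368 CPM in APP-PS1 brain. The microglial list summed to 97.8 to 174 CPM in WT blood, 0 to 109 in WT brain, 25.6 to 195 in APP-PS1 blood and 0 to 160 in APP-PS1 brain. For 6 B cell markers the sums were 108 to 419, 40.8 to 97.7, 146 to 302 and 53.3 to 574 CPM, in the same order. The 4 CD4 T cell markers reached at most 71.2 CPM, in WT blood. APP-PS1 blood 1 and APP-PS1 brain 1 stood apart, with the lowest median correlations with the other libraries over genes (r = 0.673 and 0.637), and APP-PS1 brain 1 was also the shallowest. In such bulk libraries, fewer cells of a type and less RNA per cell cannot be told apart.

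Promoter sequence was matched for 7 of the 10 genes, from RefSeq windows of 300 bases on GRCm38.p6; Hspa8, Hsp90ab1 and Hsp90aa1 were not matched. Heat shock elements were searched on both strands as 2 adjoining inverted units (GAANNTTC or TTCNNGAA) and as 3 units (GAANNTTCNNGAA or TTCNNGAANNTTC), which contain the shorter motif. Of all 32851 promoter windows, 15.1% held 2 units and 0.603% held 3. The following matches, with the matched bases in capitals and 12 flanking bases where the window allows, show which windows hold letters of the kind that heat shock factor 1 is known to bind; a match describes the sequence only.
Hspd1, chr1:55088047-55088088, minus strand: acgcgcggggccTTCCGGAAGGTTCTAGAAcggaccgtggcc
Hspe1, chr1:55088047-55088088, plus strand: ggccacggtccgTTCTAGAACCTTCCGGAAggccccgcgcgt
Hsph1, chr5:149636276-149636312, minus strand: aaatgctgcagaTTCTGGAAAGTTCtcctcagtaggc
Hsph1, chr5:149636350-149636381, minus strand: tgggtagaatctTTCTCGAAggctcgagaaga
Dnaja1, chr4:40722332-40722363, plus strand: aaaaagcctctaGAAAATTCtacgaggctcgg
Hspa1a, chr17:34972241-34972272, minus strand: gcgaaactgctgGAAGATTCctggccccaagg
Hspa1b, chr17:34959323-34959354, minus strand: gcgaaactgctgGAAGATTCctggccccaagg
Hspd1 and Hspe1 are divergent neighbours whose gene models overlap by 112 bases, and the run of 4 units in both windows is the same 18 bases of chromosome 1 read from opposite strands. The Hsph1 windows held 1 match of 3 units and 1 of 2. The Dnaja1, Hspa1a and Hspa1b windows held 1 match of 2 units each, and these letters were not in the Dnajb1 windows. The longest match was thus in the windows of the chaperonin pair, listed here as constitutive.

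The inducible HSP70 genes Hspa1a and Hspa1b lie 9951 bases apart on chromosome 17. The whole Hspa1a window is shown because it stands for both genes.
Hspa1a promoter, chr17:34972107-34972406, minus strand: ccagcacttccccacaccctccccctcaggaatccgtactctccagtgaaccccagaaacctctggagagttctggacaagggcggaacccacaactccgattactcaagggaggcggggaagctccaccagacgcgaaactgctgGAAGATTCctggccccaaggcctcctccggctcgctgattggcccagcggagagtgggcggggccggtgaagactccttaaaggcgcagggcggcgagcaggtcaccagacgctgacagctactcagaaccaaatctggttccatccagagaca
Counted from 1 at the 5′ end of this window, the Hspa1b window differed from it only by C44T, T47C, T249G and C276T. The transcripts are also alike: of the 50-base words in Hspa1a exons, 66.3% occurred in another gene, and of those in Hspa1b, 62.3% did. No label or note says how the authors treated reads that fit both genes, so the split between the pair is uncertain and their sum is used beside each. Hspa8 shared 68.8% of such words with other genes, Hsp90aa1 50.1%, Hspe1 44.8%, Hspd1 42.1% and Dnaja1 27.1%, whereas Hsp90ab1 shared 4.13%, Dnajb1 0.412% and Hsph1 none.

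Levels per length of exon spanned a wide range. Hsp90ab1, the constitutive cytosolic HSP90, had the highest mean over the 17 libraries at 361.5 ± 84.0 CPM per kb (SD). Hspa8, the constitutive HSP70, followed at 220.3 ± 44.9 CPM per kb and was below Hsp90ab1 in 16 of 17 libraries. This order depends on the length used, all annotated exon bases of a gene, 4301 for Hspa8 and 2999 for Hsp90ab1. In CPM not scaled to length, Hspa8 exceeded Hsp90ab1 in WT blood 4 and 5, WT brain 2 and 3, APP-PS1 blood 2 and APP-PS1 brain 2. The sequence that Hspa8 shares with other genes further limits the order. Hspe1, the mitochondrial HSP10, had 141 ± 68.4 CPM per kb and lay above the next gene in all 17 libraries. Hsp90aa1 (53.0 ± 20.2), Hspd1 (42.3 ± 22.2) and Dnaja1 (38.1 ± 16.7 CPM per kb) did not differ beyond their spread. Dnajb1 had 26.3 ± 17.2 CPM per kb. Hspa1a, Hsph1 and Hspa1b were lowest at 8.03 ± 11.9, 7.37 ± 6.86 and 7.35 ± 10.9 CPM per kb and could not be ordered. Hspa8 and Hsp90ab1 together held 57.4% to 75.7% of the counts of the 10 genes in each library.

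**Figure D1:**
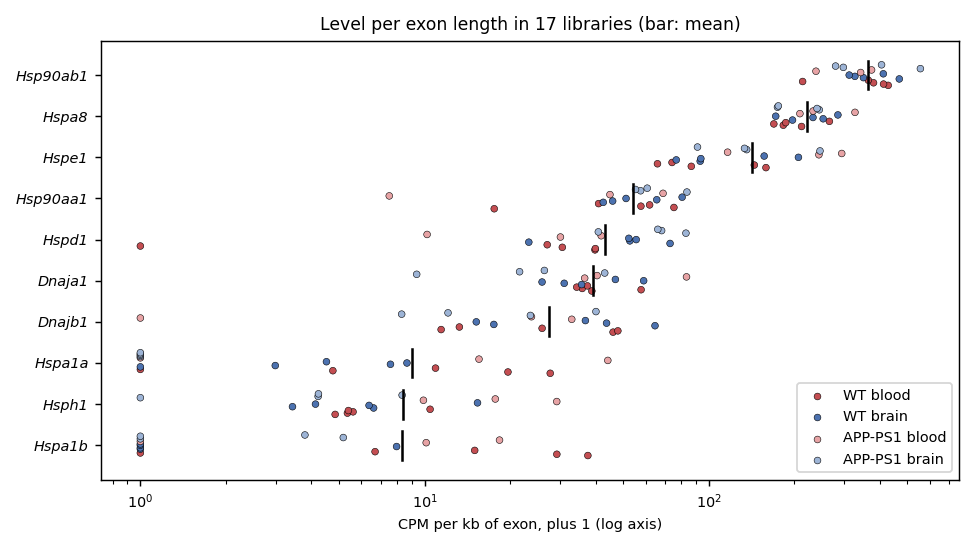
Level of each gene in CPM per kb of exon, plus 1, on a log axis; each point is 1 of 17 libraries, coloured by group, and the black bar is the mean. The order runs from Hsp90ab1 at 361.5 to Hspa1b at 7.35 CPM per kb, with overlapping points for most neighbours.

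Of the 10 genes, 7 passed the expression filter and were tested with edgeR, while Hspa1a, Hspa1b and Hsph1 fell below it. None of the 7 was called in WT brain against WT blood, where 0.761% of 2366 tested genes were called, and none had an unadjusted p under 0.05 (7.27% of all genes had). None was called in APP-PS1 brain against APP-PS1 blood (0.549% of all genes), in APP-PS1 against WT brain (0% of all genes) or in APP-PS1 against WT blood (0.0423% of all genes). With both strains averaged, where 2.62% of genes were called, and for the difference of the tissue contrast between strains, where 0.0423% were called, the count was again 0. DESeq2 and limma voom also called 0 in each comparison. In APP-PS1 against WT blood, however, DESeq2 gave no adjusted p for Hsp90aa1, Hspd1, Hspe1 and Dnajb1, so these genes could not be called there. At an unadjusted edgeR p under 0.05 there was 1 gene in the APP-PS1 tissue contrast (10.7% of all genes), 1 in blood between strains (8.03%), 2 in the averaged contrast (13.4%), 0 in brain between strains (4.14%) and 0 for the difference between strains (4.95%). A missed threshold at this depth does not show that levels were equal, so intervals of the differences are given with the genes described below and in the plot of fold changes.

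**Figure D2:**
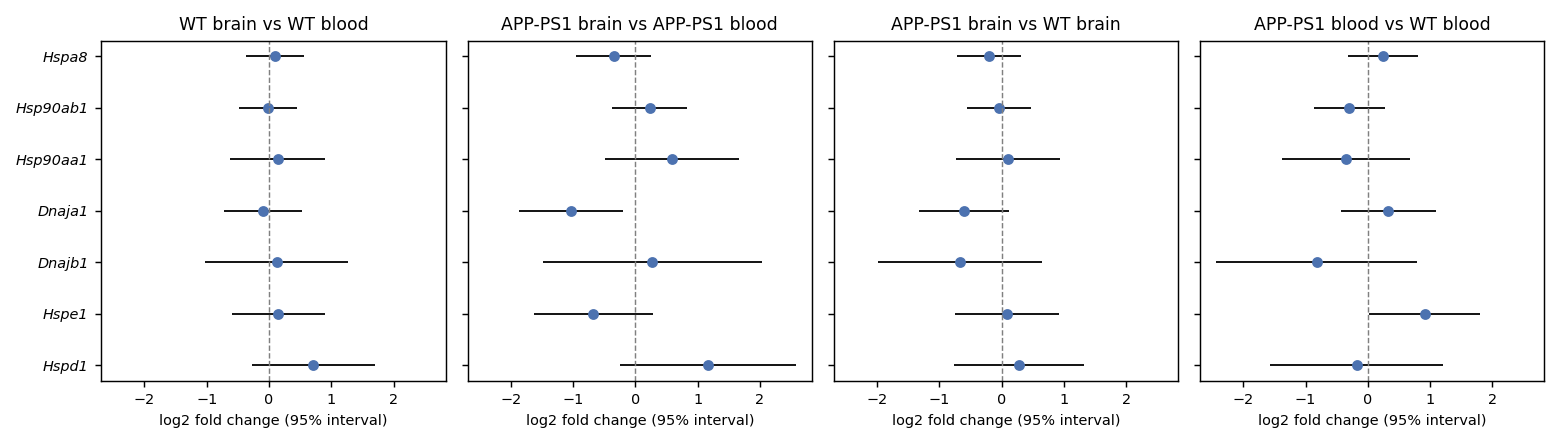
Log2 fold change with its 95% interval for the 7 tested genes in 4 comparisons, first group over second. The intervals of Hspa8 and Hsp90ab1 are the narrowest, those of Dnajb1 and Hspd1 the widest, and none of the points passed the adjusted threshold.

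The inducible HSP70 genes had few counts in brain. Hspa1a and Hspa1b together had 75 counts among 721731 in the 8 blood libraries, or 104 CPM (Poisson 95% interval 81.7 to 130.3, counting error only), and 9 counts among 819196 in the 9 brain libraries, or 11.0 CPM (5.02 to 20.9). All 8 blood libraries and 6 of 9 brain libraries had at least 1 count. The blood counts were uneven, with 52% of them in WT blood 1. Without that library the blood value was 71.0 CPM (49.7 to 98.3).

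In WT blood, the summed level of the pair was 182, 134, 11.1, 15.97 and 68.7 CPM in libraries 1 to 5, from 39, 17, 1, 1 and 7 counts. In WT brain it was 0, 5.89, 39.1, 22.8 and 10.4 CPM, from 0, 1, 2, 3 and 1 counts. Libraries 1, 2 and 5 of WT blood were above all WT brain libraries, and libraries 3 and 4 lay within the brain range, so the groups overlapped. Hspa1a alone was 35.03 ± 32.4 CPM (SD, n = 5) in WT blood and 11.7 ± 9.44 CPM (SD, n = 5) in WT brain, with an exact two-sided permutation p of 0.183 (adjusted 0.438). Hspa1b was 47.4 ± 42.8 CPM (SD, n = 5) in WT blood and 3.91 ± 8.74 CPM (SD, n = 5) in WT brain, with an exact permutation p of 0.0873 and 0.262 after adjustment over 12 tests.

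In APP-PS1 blood the pair reached 154, 43.2 and 48.7 CPM, from 6, 2 and 2 counts, and in APP-PS1 brain 0, 11.7, 0 and 7.83 CPM, from 0, 1, 0 and 1 counts. Every APP-PS1 blood library was above every APP-PS1 brain library, and 4.16% of genes below the filter with at least 10 counts had groups that did not overlap in this comparison. Libraries 2 and 3 of this blood group rested on 2 counts each, and APP-PS1 blood 1, which stands apart, held 60% of the group's counts. Without it the APP-PS1 blood value of the pair moved from 79.1 to 45.7 CPM (12.5 to 117) and stayed above the 6.73 CPM (0.815 to 24.3) of APP-PS1 brain. Hspa1a was at 0 in all 4 APP-PS1 brain libraries, which allows up to 10.1 CPM over the group (counting error only). Its exact permutation p against APP-PS1 blood was 0.286 (adjusted 0.490), and that of Hspa1b was 0.286 (adjusted 0.490); 4 libraries against 3 cannot give less than 0.0571. Between strains, Hspa1a was higher in APP-PS1 blood than in WT blood by 22.0 CPM on average (exact permutation p = 0.571), and lower by 13.5 CPM without APP-PS1 blood 1. In brain, the exact permutation p of Hspa1a between strains was 0.0794 (adjusted 0.262). The red blood cell sum was higher in every blood group than in brain, and its part in these values was not tested.

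**Figure D3:**
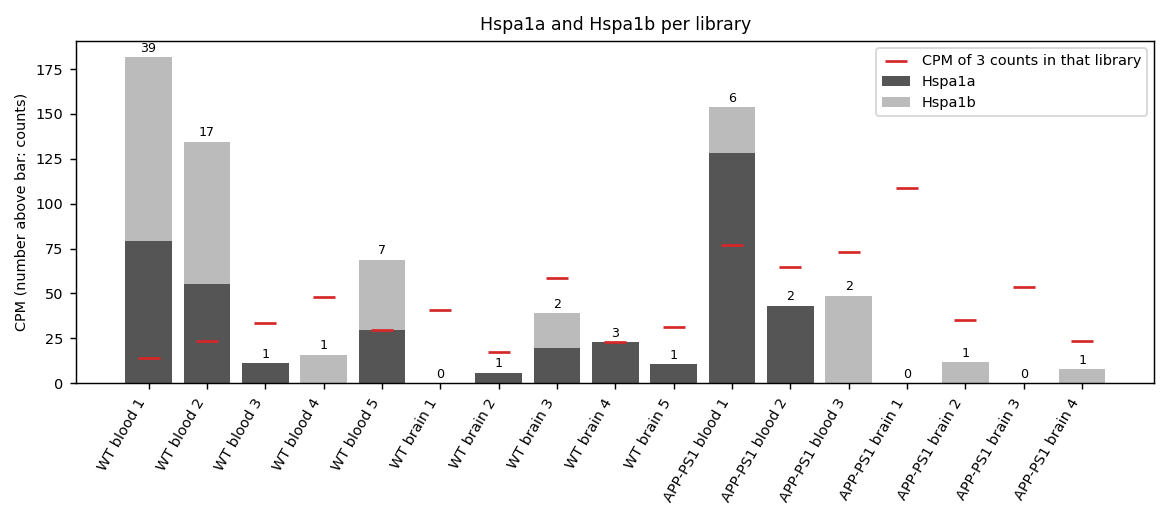
CPM of Hspa1a and Hspa1b, stacked, in each of 17 libraries, with the number of counts above each bar and a red line at the CPM that 3 counts would give in that library. Only WT blood 1, 2 and 5 and APP-PS1 blood 1 exceed their line, WT brain 4 lies on it, and the other libraries are below it.

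With no expression filter, edgeR tested all 10 genes and still called none in any comparison. Adjustment there was over the 13539 genes with a count. In that fit the WT tissue difference of Hspa1b was -4.01 ± 1.21 (SE, log2), with an unadjusted edgeR p of 0.000897 and an adjusted p of 0.292. The largest for Hspa1a was -5.09 ± 1.73 in APP-PS1 brain against blood (unadjusted edgeR p 0.00335, adjusted p 0.566). With both strains averaged it was -3.43 ± 1.00 (unadjusted edgeR p 0.000626, adjusted p 0.116). These fitted values depend on the prior count, since Hspa1a was at 0 in APP-PS1 brain.

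Hsph1, an HSP110 that serves as nucleotide exchange factor for HSP70, was the only one of the 10 genes with groups that did not overlap, and only in the APP-PS1 tissue comparison. It had 205, 64.7 and 122 CPM in APP-PS1 blood, from 8, 3 and 5 counts. In APP-PS1 brain it had 0, 23.4, 53.3 and 23.5 CPM, from 0, 2, 3 and 3 counts. Groups failed to overlap in this comparison for 9.04% of tested genes and for 4.16% of genes below the filter with at least 10 counts, so 1 of 10 is near that background. The exact permutation p was 0.0571, the smallest this design allows, and 0.262 after adjustment. Without the 2 libraries that stand apart the groups still did not overlap, and the difference of means moved from -105 to -59.8 CPM.

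In WT mice Hsph1 had 27.9, 31.6, 33.4, 31.9 and 68.7 CPM in blood and 40.8, 17.7, 39.1, 22.8 and 104 CPM in brain, with a wide overlap and an exact permutation p of 0.770. APP-PS1 blood exceeded WT blood by 91.7 CPM on average (exact permutation p = 0.0714, adjusted 0.262). APP-PS1 blood 2, at 64.7 CPM, lay below WT blood 5, at 68.7 CPM, so these groups overlapped. Of the 10 genes, none was separated between tissues in WT mice, where 2.62% of tested genes and 0.982% of the genes below the filter were. None was in brain between strains (1.56% and 1.44%) or in blood between strains (6.93% and 4.18%).

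Dnajb1 and Dnaja1 encode J-domain proteins that hand substrates to HSP70. The inducible Dnajb1 was 89.5 ± 55.8 CPM (SD, n = 5) in WT blood and 111 ± 65.2 CPM (SD, n = 5) in WT brain, a log2 difference of 0.12 with a 95% interval of -1.03 to 1.27. In APP-PS1 mice it was 58.5 ± 52.7 CPM (SD, n = 3) in blood and 64.1 ± 45.8 CPM (SD, n = 4) in brain. It had no count in APP-PS1 blood 2 and 16 counts in APP-PS1 brain 4, and the tissue interval of -1.48 to 2.03 held more than a doubling either way.

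The constitutive Dnaja1 had 307, 712 and 341 CPM in APP-PS1 blood against 72.3, 363, 178 and 219 CPM in APP-PS1 brain. Only APP-PS1 brain 2 reached the blood range. The log2 difference of brain against blood was -1.04 ± 0.42 (SE; 95% interval -1.87 to -0.20), with an unadjusted p of 0.016 and an edgeR adjusted p of 0.327. In WT mice the blood libraries had 326, 490, 301, 288 and 314 CPM and the brain libraries 299, 259, 215, 501 and 396 CPM, a log2 difference of -0.10 ± 0.31 (SE). The difference between strains in this contrast was -0.93 ± 0.52 (SE, log2; edgeR adjusted p = 0.945), so a strain-specific behaviour of Dnaja1 was not shown. Averaged over strains the value was -0.57 ± 0.26 (SE, log2; edgeR adjusted p = 0.317).

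Hsp90ab1 and Hsp90aa1 encode the constitutive and the inducible cytosolic HSP90. Hsp90ab1 was 1076 ± 256 CPM (SD, n = 5) in WT blood, 1118 ± 195 CPM (SD, n = 5) in WT brain, 952 ± 213 CPM (SD, n = 3) in APP-PS1 blood and 1151 ± 381 CPM (SD, n = 4) in APP-PS1 brain. Its WT tissue difference was -0.02 on the log2 scale, with an interval of -0.49 to 0.45 that leaves out a doubling in either direction. Hsp90aa1 had 65.2, 293, 223, 240 and 157 CPM in WT blood and 25.6, 173 and 268 CPM in APP-PS1 blood. In WT brain it had 163, 177, 254, 197 and 313 CPM, and in APP-PS1 brain 326, 222, 213 and 235 CPM. WT blood 1 and APP-PS1 blood 1 were thus the lowest for Hsp90aa1, with 14 counts and 1 count of it. They were also the highest for the Hspa1 pair within their groups. As a share of Hsp90ab1 counts, Hsp90aa1 was 5.09% and 2.5% in these libraries and 11.7% to 37.5% in the other 15. The tissue difference of Hsp90aa1 was 0.14 (95% interval -0.63 to 0.90, log2) in WT and 0.59 (-0.49 to 1.66) in APP-PS1 mice.

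Hspa8, which serves protein folding and clathrin uncoating in unstressed cells, was at 871 ± 164 CPM (SD, n = 5) in WT blood, 976 ± 192 CPM (SD, n = 5) in WT brain, 1099 ± 268 CPM (SD, n = 3) in APP-PS1 blood and 894 ± 168 CPM (SD, n = 4) in APP-PS1 brain. The log2 difference of brain against blood was 0.09 (95% interval -0.38 to 0.57) in WT and -0.35 (-0.95 to 0.25) in APP-PS1 mice. Between strains it was -0.19 (-0.71 to 0.32) in brain and 0.25 (-0.31 to 0.81) in blood. All 4 intervals leave out a 2-fold change.

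Hspd1 and Hspe1 encode the parts of the mitochondrial chaperonin, the HSP60 barrel and its HSP10 lid, and share the promoter region shown above. Hspd1 had 102, 103, 78.0, 0 and 68.7 CPM in WT blood and 191, 58.9, 137, 144 and 136 CPM in WT brain. In APP-PS1 mice it had 76.8, 108 and 24.3 CPM in blood and 217, 105, 178 and 172 CPM in brain. In each strain 1 brain library, WT brain 2 and APP-PS1 brain 2, was within the blood range. The log2 difference of brain against blood was 0.71 ± 0.49 (SE) in WT and 1.17 ± 0.71 (SE) in APP-PS1 mice, and 0.94 ± 0.43 (SE; 95% interval 0.08 to 1.80) averaged over both, with an unadjusted p of 0.033 and an edgeR adjusted p of 0.317.

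In APP-PS1 mice the estimate for Hspe1 had the opposite sign. It had 358, 432 and 170 CPM in APP-PS1 blood and 362, 199, 196 and 133 CPM in APP-PS1 brain, a log2 difference of -0.67 ± 0.48 (SE; edgeR adjusted p = 0.690). In WT blood it had 233, 127, 212, 95.8 and 108 CPM, and in WT brain 136, 112, 137, 303 and 230 CPM, a log2 tissue difference of 0.15 ± 0.37 (SE). WT blood 1 and 3 exceeded APP-PS1 blood 3, so the blood groups overlapped. The difference of APP-PS1 from WT blood was 0.92 ± 0.44 (SE, log2; 95% interval 0.03 to 1.80; edgeR adjusted p = 0.604). With sex as a term that value was 0.22. The ratio of Hspd1 to Hspe1 counts was 0.214, 0.25 and 0.143 in the APP-PS1 blood libraries and 0.6, 0.529, 0.909 and 1.29 in the APP-PS1 brain libraries, without overlap, on 9 Hspd1 counts in all in APP-PS1 blood. For the CPM of single genes, groups were separated in this comparison for 9.04% of tested genes. The share among ratios of gene pairs was not computed. In WT mice the ratio overlapped, at 0 to 0.812 in blood and 0.475 to 1.4 in brain. Because the gene models overlap and both genes share sequence with other loci, part of these counts cannot be assigned with certainty.

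**Figure D4:**
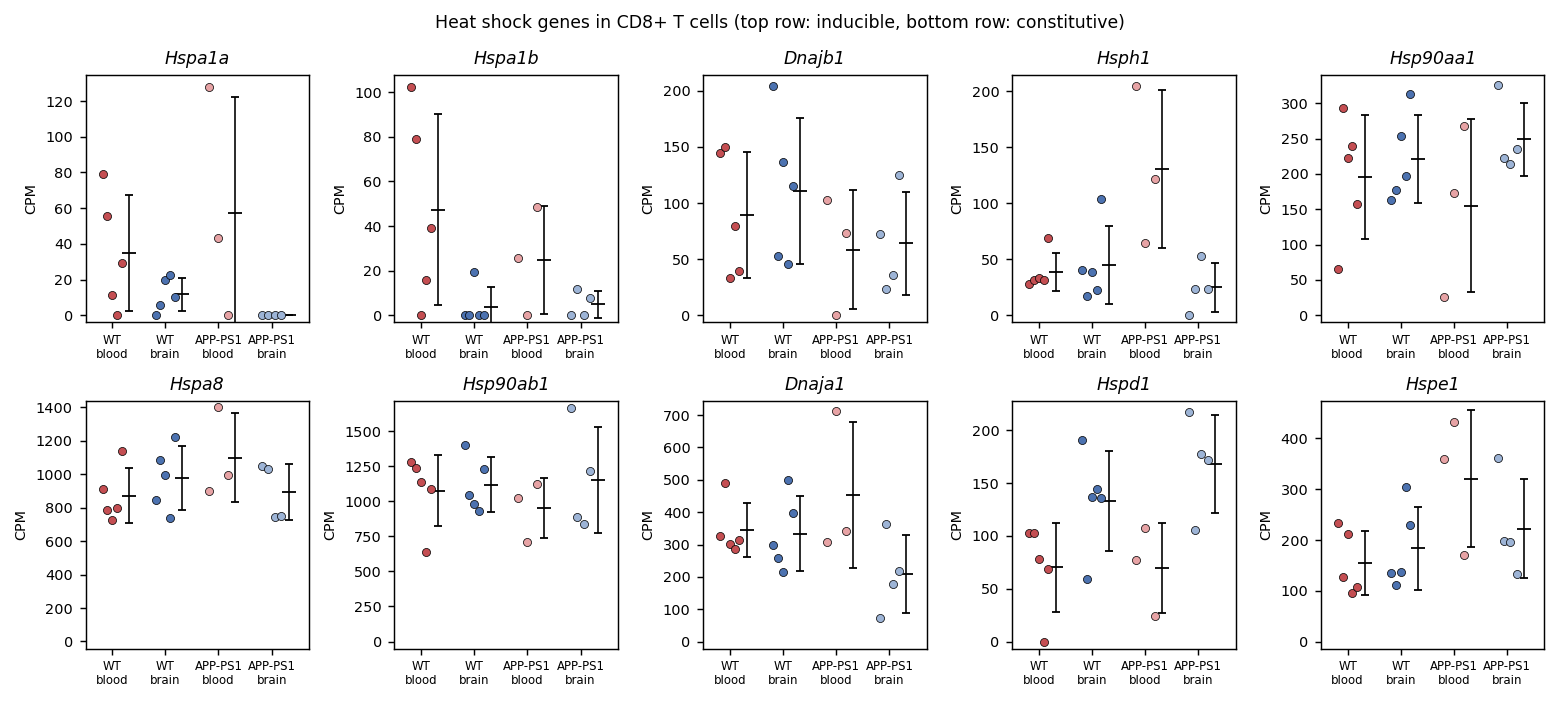
CPM of the 10 genes in each library, by group (points), with mean and SD beside them; the inducible genes are in the top row and the constitutive genes in the bottom row. Hspa1a and Hspa1b are at 0 to 22.8 CPM in brain, Hsph1 is highest in APP-PS1 blood (64.7 to 205 CPM), and the abundant genes overlap between all groups.

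The ratio of the summed inducible to the summed constitutive counts was taken per library, which needs no library total. It was 14.7%, 22.3%, 12.3%, 20.2% and 12.3% in WT blood and 14.2%, 9.89%, 19.0%, 11.0% and 16.9% in WT brain. In APP-PS1 mice it was 18.3%, 8.33% and 19.3% in blood and 11.8%, 10.9%, 14.2% and 15.7% in brain. Medians were 14.7% in WT blood, 14.2% in WT brain, 18.3% in APP-PS1 blood and 13.0% in APP-PS1 brain, and all groups overlapped. The order of the tissue medians depended on which libraries were included. Without WT blood 2 or WT blood 4 the WT blood median was 13.5%, below that of WT brain, and without WT brain 2 or WT brain 4 the WT brain median was 15.6%, above that of WT blood. In APP-PS1 mice the order turned without the 2 libraries that stand apart, at 13.8% in blood and 14.2% in brain. Over all libraries Hsp90aa1 gave 303 of the inducible counts, Dnajb1 139, Hsph1 67, Hspa1b 43 and Hspa1a 41.

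Set against Hspa8 alone, the Hspa1 pair gave a wider spread. Its counts were 20%, 17.2%, 1.54%, 2% and 6.03% of Hspa8 counts in WT blood and 0%, 0.543%, 3.92%, 3.09% and 0.855% in WT brain. They were 17.1%, 3.08% and 4.88% in APP-PS1 blood and 0%, 1.14%, 0% and 1.04% in APP-PS1 brain. On this measure the APP-PS1 groups did not overlap and the WT groups did. The pair had 2 counts each in APP-PS1 blood 2 and 3, and 2 counts in APP-PS1 brain as a whole. For the CPM of single genes, 9.04% of tested genes and 4.16% of genes below the filter did not overlap in this comparison. No such share was computed for ratios.

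**Figure D5:**
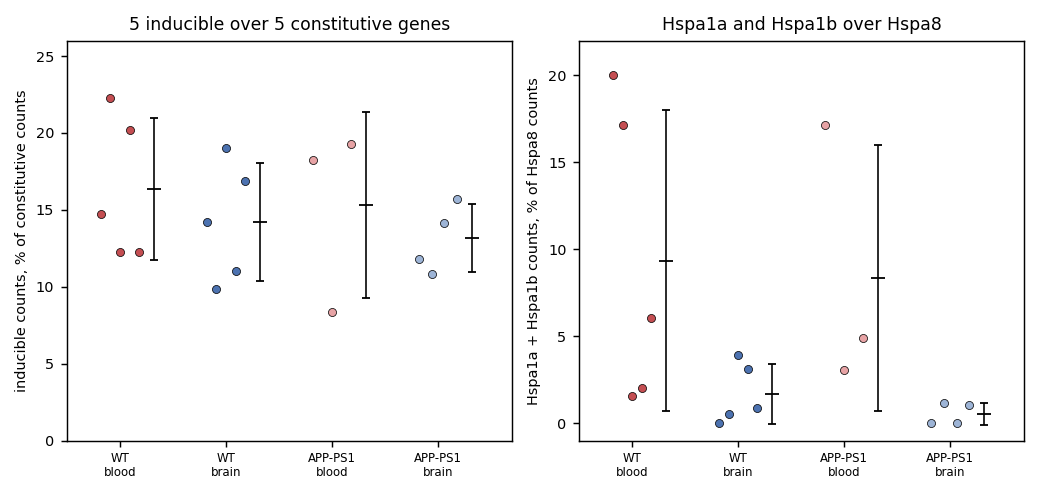
Left, summed counts of the 5 inducible genes as a percentage of those of the 5 constitutive genes; right, Hspa1a and Hspa1b counts as a percentage of Hspa8 counts; points are libraries, bars mean and SD. The left panel overlaps between all groups (8.33% to 22.3%), while in the right panel 3 blood libraries lie at 17.1% or more and all brain libraries at 3.92% or less.

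The other genes of the chaperone network gave no calls either. Of 100 genes listed as heat shock factors, other HSP70 and HSP110, exchange factors, other J-domain proteins, HSP90 co-chaperones, small heat shock proteins and TRiC or prefoldin subunits, 38 were tested and 0 were called in any comparison. Between 0% and 2.62% of all tested genes were called in the 6 comparisons, so a count of 0 of 38 is near that background. The largest count totals over all libraries, not scaled to length, were those of Ptges3, the HSP90 co-chaperone p23 (1258), Cct6a, a TRiC subunit (879), and Pfdn5, a prefoldin subunit (548). Cct6a was 926 ± 259 CPM (SD, n = 3) in APP-PS1 blood and 556 ± 178 CPM (SD, n = 4) in APP-PS1 brain, a log2 difference of -0.82 ± 0.33 (SE; edgeR adjusted p = 0.327). In the same contrast Pfdn5 and Ptges3 had estimates of the opposite sign, 0.75 ± 0.41 and 0.58 ± 0.34 (SE, log2; edgeR adjusted p = 0.535 and 0.564). Among J-domain genes, Dnajc15 was 420 ± 122 CPM (SD, n = 3) and 211 ± 71.5 CPM (SD, n = 4) in the same groups, -1.06 ± 0.40 (SE, log2; edgeR adjusted p = 0.265), while Dnajc8 had an estimate of 0.13 ± 0.46 (SE, log2; edgeR adjusted p = 0.950). The endoplasmic reticulum chaperones Hspa5 and Hsp90b1 differed between WT brain and blood by 0.39 ± 0.35 and -0.14 ± 0.30 (SE, log2). None of the 10 small heat shock genes was tested: Hspb11 had 34 counts over all libraries, Cryab 4, and Hspb1 none. Median log2 differences of the tested lists between tissues in WT mice ran from -0.48 for 5 tested exchange factors to 0.56 for 4 tested other HSP70 genes, beside 0.02 over all tested genes. In APP-PS1 mice the medians of these lists were -0.28 and 0.07, and the lowest was -0.70 for 7 tested HSP90 chaperones and co-chaperones, beside 0.03 over all tested genes.

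Immediate early genes are the other group known to respond to dissociation, and here members were called in both directions. Of 24 listed genes, 12 were tested. Of these, 1 was called in the WT tissue contrast, 1 in the APP-PS1 tissue contrast and 3 in the averaged contrast. Over all tested genes the called shares were 0.761%, 0.549% and 2.62%. Dusp2, a phosphatase that acts on ERK, rose in WT brain to 197 ± 57.5 CPM (SD, n = 5) over 38.2 ± 24.4 CPM (SD, n = 5) in WT blood, a log2 difference of 2.13 ± 0.49 (SE; edgeR adjusted p = 0.0107). Ier2, an immediate early response gene, was lower in APP-PS1 brain at 164 ± 64.8 CPM (SD, n = 4) than in APP-PS1 blood at 745 ± 29.1 CPM (SD, n = 3), a difference of -2.15 ± 0.41 (SE, log2; edgeR adjusted p = 0.000911). Averaged over strains, Dusp2 was higher in brain (1.76 ± 0.42) and Ier2 (-1.56 ± 0.26) and Junb, an AP-1 subunit (-0.75 ± 0.21), were lower, with edgeR adjusted p-values of 0.00913, 3.88e-05 and 0.0355. These calls depended on the fit: the Dusp2 call in WT mice was absent with voom, without the filter, with counts thinned to the shallowest library and without WT brain 5 (0 called in each), and the Ier2 call in APP-PS1 mice was absent after thinning (0 called). For the averaged contrast, alternative fits were counted over these genes pooled with the other listed chaperone genes, so the list of each call is not given. In that pool, 2 genes were called in place of 3 with voom and without the filter, and 1 after thinning or without APP-PS1 blood 1. The count was also 2 without WT blood 3 or 4, WT brain 2, 4 or 5, APP-PS1 blood 3, or APP-PS1 brain 2, 3 or 4. Without APP-PS1 brain 1 it was 4. The median over the 12 was -0.25 in WT and -0.34 in APP-PS1 mice (log2, brain against blood), beside 0.02 and 0.03 over all tested genes.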

How the data were processed

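The authors deposited raw whole-number counts for each gene in each library. Per the submitters' processing notes, FastQC, Bowtie2 (2.2.2), HTSeq (0.11.2) and DESeq2 were used with the build GRCm38; their roles, the strand setting, the annotation release and the treatment of reads that fit several genes are not stated there. Groups came from the labels. Same-group libraries differed by more than sampling noise (chi-square per degree of freedom 2.59 to 5.69 over 29 pairs, 0 identical).

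Differences were tested by edgeR 4.0.16 (R 4.3.3) with TMM factors, a filter of about 117 CPM in 3 or more libraries that left 2366 genes, and robust quasi-likelihood F tests over all 17 libraries with 1 mean per group. Adjustment was by Benjamini-Hochberg over all tested genes, with 0.05 as the limit for a call on the adjusted p. For the 3 genes under the filter, mean CPM were set against each other in exact two-sided permutation tests that double the smaller tail, as in SciPy 1.17.1, adjusted over 12 tests; this two-sided rule replaced a count by size of difference after results under the latter had been seen. CPM use total counts, SD is between libraries, and a floor is 3 counts. Exon lengths and coordinates are from GENCODE annotation on GRCm38. The fit was tested on simulated data. Alternatives used RLE size factors, DESeq2, limma 3.58.1 (voom), no filter, only the groups compared, a sex term, thinned counts and each library left out.

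The 10 genes, the lists and the tests were chosen with earlier results of these data known. All 10 genes are described, and of each other list the called genes and the 2 with the highest mean CPM could be named; Hspb1 was named after its value was seen. The level of 1 marker gene is not reported here.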

Additional observations from a re-analysis of the deposited data

Results flagged for a closer look

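In 4 of 32 groups examined, 1 library lay far from the others of its group, by the gap to its nearest neighbour relative to the group's range; the limit used is set so that chance gives about 1 in 20 such groups when values are independent and normally spread. That was not tested here, groups of different genes share libraries, and no excess over chance is read from the 4. Hspa1b was 19.5 CPM in WT brain 3 and 0 in the other 4 WT brain libraries, and this value is 1 count. Hsph1 was 68.7 CPM in WT blood 5, where the other 4 libraries had 27.9 to 33.4 CPM. Hsph1 was also highest in WT brain 5, at 104 CPM from 10 counts, against 17.7 to 40.8 CPM in the others. Dnaja1 was 490 CPM in WT blood 2, against 288 to 326 CPM in the others.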

How the results depend on the processing

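No paired analysis was possible because no label pairs brain and blood libraries. The count of 0 called heat shock genes held in each of the 6 comparisons in 102 recomputations with 1 library left out and 46 under other settings (RLE size factors, DESeq2, voom, no filter, only the groups compared, a sex term, thinning, and without both libraries that stand apart). Some genes could not be called in some of these settings. DESeq2 gave no adjusted p for Hsp90aa1, Hspd1, Hspe1 and Dnajb1 in blood between strains, and Dnajb1 was not tested after thinning. Further values were absent after thinning or with only the groups compared, where the filter was applied anew, so this list is not complete. Of 305 single log2 fold changes under settings other than leaving out a library, 22 changed sign, none of them past the threshold. With counts thinned to the shallowest library they were Hspa8 -0.37 in the WT tissue contrast, Hsp90ab1 0.20 in the WT tissue contrast, Hspe1 -0.15 in the WT tissue contrast, Hsp90ab1 -0.15 in the APP-PS1 tissue contrast, Hspa8 0.0264 in brain between strains, Hsp90aa1 -0.12 in brain between strains, Hspa8 -0.0918 in blood between strains, Hsp90ab1 0.18 in blood between strains, Hspa8 0.12 in the difference between strains, Hsp90ab1 -0.35 in the difference between strains, Hsp90aa1 -0.0164 in the difference between strains. With limma voom they were Dnajb1 -0.26 in the WT tissue contrast, Hspe1 -0.00244 in the WT tissue contrast. With only the groups compared it was Hsp90ab1 0.00698 in brain between strains. With sex as a term they were Hsp90ab1 0.19 in brain between strains, Dnajb1 0.0462 in brain between strains, Hspe1 -0.58 in brain between strains, Dnajb1 0.017 in blood between strains. Without the libraries that stand apart they were Hspe1 -0.0898 in brain between strains, Hsp90aa1 0.13 in blood between strains, Hsp90aa1 -0.0822 in the difference between strains. Without the filter it was Hspa8 -0.0221 in blood between strains. Leaving out 1 library changed the sign of 34 of 714 values, and the ranges were -0.0142 to 0.20 for Hspa8 in the WT tissue contrast, -0.17 to 0.0475 for Hsp90ab1 in the WT tissue contrast, -0.14 to 0.35 for Hsp90aa1 in the WT tissue contrast, -0.29 to 0.0425 for Dnaja1 in the WT tissue contrast, -0.25 to 0.38 for Dnajb1 in the WT tissue contrast, -0.11 to 0.36 for Hspe1 in the WT tissue contrast, -0.57 to 0.89 for Dnajb1 in the APP-PS1 tissue contrast, -0.17 to 0.0832 for Hsp90ab1 in brain between strains, -0.0913 to 0.38 for Hspe1 in brain between strains, -0.0734 to 0.43 for Hspa8 in blood between strains, -1.003 to 0.17 for Hsp90aa1 in blood between strains, -0.28 to 0.59 for Dnaja1 in blood between strains, -0.79 to 0.14 for Hspd1 in blood between strains, -0.22 to 0.00678 for Hspa8 in the averaged contrast, -0.23 to 0.49 for Dnajb1 in the averaged contrast, -0.0518 to 1.10 for Hsp90aa1 in the difference between strains, -0.68 to 0.80 for Dnajb1 in the difference between strains. For genes below the filter, the difference of mean CPM ranged from -8.66 to 13.7 for Hsph1 in the WT tissue contrast, -1.3 to 4.88 for Hspa1b in brain between strains, -13.5 to 50.6 for Hspa1a in blood between strains, and Hspa1a in blood between strains was -13.5 CPM without the libraries that stand apart. The exact permutation p was first computed by counting splits by the size of the difference, with a lowest adjusted p of 0.214; doubling the smaller tail (lowest adjusted p 0.262) was made the reported rule after those results had been seen, and no adjusted p passed under either. The removal of both libraries was also added after the data were seen. With the Hspa1 pair over Hspa8 the median ratio was 6.03% in WT blood, 0.855% in WT brain, 4.88% in APP-PS1 blood and 0.521% in APP-PS1 brain. Calls of the other lists were counted over all of them together, immediate early genes included. Of these, 1 gene was called in the WT tissue contrast, against 0 with voom, without the filter and after thinning, and 0 to 2 with 1 library left out. In the APP-PS1 tissue contrast it was 1, against 0 after thinning and 1 to 2 with 1 library left out. In the averaged contrast it was 3, against 2 with voom, 2 without the filter, 1 after thinning and 1 to 4 with 1 library left out. In blood between strains it was 0, against 1 with only the groups compared. Over all tested genes, the called shares in these contrasts in the main fit were 0.761%, 0.549%, 2.62% and 0.0423%, in the same order. Depth limits all of this: at 27646 to 214670 counts a library, 3 counts are worth 13.97 to 108.5 CPM.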
